A study of Mus musculus with 4 samples.

Results

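Joining of broken DNA ends was examined through 10 genes that act when B cells switch antibody class, namely Xrcc5, Xrcc6, Prkdc, Lig4, Xrcc4, Nhej1, Trp53bp1, Rif1, Mad2l2 and Atm. The rows whose gene symbol equals one of these names were taken from the 2 RNA libraries of the series. This found 9 genes of 13792 listed, and Nhej1 was not analysed here. The C57BL/6 mouse, an inbred strain, was the source of the naive B cells for both libraries, which were infected with a retrovirus and grown with antibodies to IgM and to CD40. These antibodies engage the antigen receptor and the receptor through which T cells help B cells. One library (RVKM-Empty, the empty vector) carried the virus with no insert and the other (RVKM-Ascl2) the virus with Ascl2, a basic helix-loop-helix transcription factor. The labels give neither the time in culture nor the share of cells that took up virus, and no cytokine is named. With 1 library per group no difference has a replicate error, so no test was made, and a difference between the 2 cultures or preparations cannot be told apart from one due to Ascl2.

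Class switching replaces the constant region of the antibody heavy chain by cutting the locus at 2 places and joining the distant ends. Classical end joining does the joining. The Ku heterodimer caps each end and recruits the catalytic subunit of DNA-dependent protein kinase, and a complex of XRCC4, ligase IV and XLF seals the break. The kinase ATM signals the break, and 53BP1 with RIF1 and the shieldin complex, which contains the Mad2l2 product, protects ends from being cut back to single strands. Mice or B cells that lack 53BP1, RIF1 or ATM are known for poor switching. All of these proteins are present in cells well before a break occurs, and much of their control is by recruitment and phosphorylation, which RNA levels do not show.

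Each value is an abundance per gene as the authors scaled it. The sources used here do not name its unit, and whether it is per gene length is not stated, so levels of different genes are not ranked. Absolute depth is unknown and no counting interval can be given. The values summed to 750692 with the empty vector and 763932 with Ascl2. Ascl2 itself was 0.0809 and 29.4, the direction its label gives. The B cell markers Cd79a, Cd79b, Ms4a1, Pax5, Cd22 and Cd74 ranged from 98.4 to 5742 with the empty vector and from 97.7 to 4168 with Ascl2. Their sums were 7958 and 6063, 5 of the 6 had a log2 ratio below 0, and the median log2 ratio was -0.28, with the largest for Cd74 (-0.46) and Cd79a (665 and 492, -0.43). Of 7 T cell markers only Lat had a value, at 1.36 and 1.41. Of 7 myeloid markers 5 had one, ranging from 0.780 to 16.2 and from 1.06 to 21.4, with sums of 44.0 and 48.4 and 4 of the 5 above 0. Fcer1g was 5.71 and 9.83 (log2 ratio 0.69, past 1.5-fold), while Cd68 was 16.2 and 10.8 (-0.55). The part of other cells in the results was not tested.

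Because Ascl2 belongs to a family whose members bind E-boxes, of the form CANNTG, the windows around the transcript starts of the genes were searched for these letters and for CAGCTG, one form of the E-box that is included in the first. Both read the same on either strand. RefSeq gives windows of 250 bases before to 50 bases after a start (GRCm38.p6, the assembly called mm10) for 7 of the 9 genes, 9 windows in all, with none for Prkdc and Rif1. CANNTG was present in 7 of the 9 windows and in 72.3% of all 32851 windows of the table. CAGCTG was present in 5 of the 9, those of Mad2l2, Lig4 and Atm, and in 16.3% of all windows. Mad2l2 and Lig4 have 2 windows each. Counted by gene, CAGCTG was present in 3 of the 7 genes, beside 18.3% of all 27025 genes with a window. Windows of 1 gene are not independent, and a match describes letters and not a bound site. The CAGCTG matches are given from 5' to 3' on the strand of the gene, with the match in capitals, because they can be set beside the RNA values that follow.
Mad2l2, chr4:148130815-148130840, plus strand, 95 bases before a start: gcgccctagcCAGCTGcgctcgccga
Mad2l2, chr4:148140240-148140255, plus strand, 250 bases before a second start: CAGCTGtgcttgcagc
Lig4, chr8:9977843-9977868, minus strand, 178 bases before a start: gcggcgggccCAGCTGgcgcagcctc
Lig4, chr8:9976367-9976392, minus strand, 71 bases before a second start: gcgcggcaagCAGCTGgcggaaacgc
Atm, chr9:53536622-53536643, minus strand, at base 39 counted from the start as base 1: cgtacagaacCAGCTGctagat

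Of the genes with these letters, Mad2l2 was lower with Ascl2, Atm was higher and Lig4 differed little. A link between the letters and the RNA values was not tested, and Prkdc and Rif1 have no window. The Xrcc5 window held other E-boxes and is shown with CANNTG matches in capitals, as the 246 bases before the RefSeq gene.
Xrcc5, chr1:72307171-72307416, plus strand: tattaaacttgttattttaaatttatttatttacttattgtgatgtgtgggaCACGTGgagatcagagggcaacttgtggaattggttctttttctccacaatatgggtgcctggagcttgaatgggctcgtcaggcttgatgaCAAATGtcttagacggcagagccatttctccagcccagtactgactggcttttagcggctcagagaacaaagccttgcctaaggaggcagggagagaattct
The windows of Xrcc4 and Trp53bp1 held no CANNTG, and that of Xrcc6 held 1, CATGTG, at 148 bases before the start. The starts used for Trp53bp1, Xrcc6 and Mad2l2 lie inside the RefSeq spans given below. For Trp53bp1 the start was 121271407 on the minus strand, and the span ends at 121296354. For Xrcc6 the start was 82016369 on the plus strand, and the span begins at 81987833. The outer ends of these spans were not searched, so the matches describe only the windows.

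None of the 9 genes differed between the libraries by as much as 1.5-fold. In RNA from many cells, fewer cells of a type and less RNA per cell cannot be told apart. The largest differences were a lower value of Mad2l2 and higher values of Atm, Rif1 and Prkdc. The other 5 genes, Xrcc5, Xrcc6, Lig4, Xrcc4 and Trp53bp1, differed by less than 1.2-fold. For every fold and log2 ratio of a single gene, the Ascl2 library was divided by the empty-vector library. Before this 1 was added to both values, which damps differences of low genes. Quotients between genes had nothing added. For scale, among all 12283 genes that reached a value of 1 in either library (the kept genes), 2.25% differed by at least 2-fold (1.53% higher with Ascl2 and 0.716% lower) and 9.32% by at least 1.5-fold (5.01% higher and 4.31% lower). With so few genes past these limits in the whole table, a count of 0 among 9 does not set the 9 genes apart. A limit of 1.2-fold, chosen after the values were seen, was passed by 4 of the 9, with 3 higher and 1 lower, against 39.4% of all genes (18.5% higher and 20.9% lower). The median log2 ratio of the 9 was 0.13, beside -0.01 over all kept genes, and ran from 0.06 with a pseudocount of 5 to 0.20 with the Ascl2 library rescaled to equal sums without immunoglobulin genes and Pcdh15. Of the 9 log2 ratios 6 lay above 0, beside 48.4% of all.

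**Figure D1:**
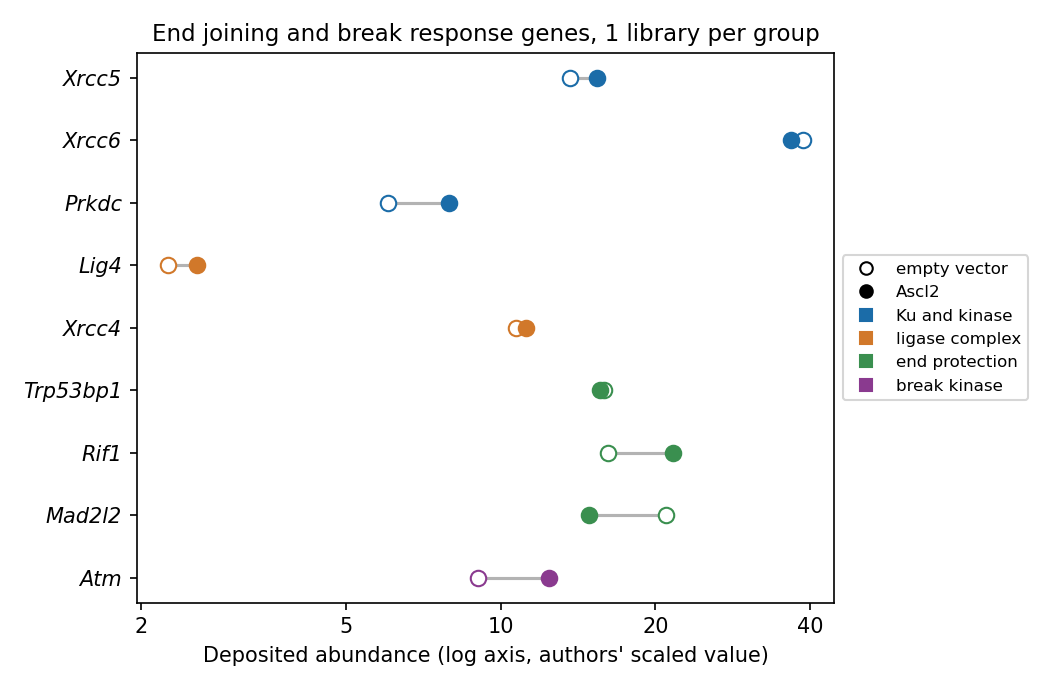
Deposited abundance (horizontal log axis, the authors' scaled value) of the 9 genes in the empty-vector library (open circles) and the Ascl2 library (filled circles), 1 library per group, coloured by role. Mad2l2 lies lower with Ascl2 while Atm, Rif1 and Prkdc lie higher, and the circles of Xrcc6, Xrcc4 and Trp53bp1 nearly touch.

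The Ku heterodimer is made of the products of Xrcc5 and Xrcc6, which are stable only together. Xrcc5 (ENSMUSG00000026187, chromosome 1, 72307417 to 72394953), for the larger subunit, stood at 13.6 with the empty vector and at 15.4 with Ascl2, a log2 ratio of 0.16. Xrcc6 (ENSMUSG00000022471, chromosome 15, 81987833 to 82040085), for the smaller one, was 38.7 and 36.7, a log2 ratio of -0.07. The subunits thus lay on opposite sides of 0, and both differences were small: 59.3% and 79.9% of all kept genes differed by at least as much. The Xrcc6 value divided by the Xrcc5 value, with nothing added, stood at 2.84 with the empty vector and at 2.38 with Ascl2. Gene length divides out when this quotient is compared between libraries, and it was 1.19 times as high with the empty vector. Rescaling the Ascl2 library to equal sums without immunoglobulin genes and Pcdh15 turned the Xrcc6 log2 ratio to 0.02. The RefSeq span of Xrcc6 overlaps that of Desi1, at 42.0 and 42.2, and the strand setting of the counting is not given in the sources used here, so reads of the pair may have been shared.

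Prkdc, for the catalytic subunit of DNA-dependent protein kinase that Ku brings to the break, was higher with Ascl2. It stood at 6.04 with the empty vector and at 7.92 with Ascl2, a log2 ratio of 0.34 (ENSMUSG00000022672, chromosome 16, 15637444 to 15842239). Of all kept genes, 27.7% differed by at least as much. The RefSeq span of Prkdc overlaps that of the pseudogene Gm52255, for which no value was found. The quotient of Prkdc to Xrcc5 was 0.443 and 0.515, which is 1.16 times as high with Ascl2 and under 1.2-fold. That of Prkdc to Xrcc6 was 0.156 and 0.216, which is 1.38 times as high with Ascl2. The RNA of the kinase subunit was thus higher with Ascl2 also relative to that of each Ku subunit, with no replicate to set an error.

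Both measured genes of the ligase complex differed by less than 1.2-fold. Lig4 (ENSMUSG00000049717, chromosome 8, 9970020 to 9977680), the ligase that seals the break, stood at 2.26 with the empty vector and at 2.57 with Ascl2, a log2 ratio of 0.13. Its values are low, and the 3360 genes with a mean value under 5 had log2 ratios whose central 90% ran from -0.64 to 0.71. Xrcc4 (ENSMUSG00000021615, chromosome 13, 89848914 to 90089608), the scaffold that holds the ligase, was 10.7 and 11.2, a log2 ratio of 0.06. The quotient of Xrcc4 to Lig4 was 4.75 and 4.36. The log2 ratio of Xrcc4 was -0.0030 once the trend of ratios with genomic span was removed, so it has no direction, and that of Lig4 was 0.25.

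Among the genes that protect ends, the 3 members went different ways. Trp53bp1 (ENSMUSG00000043909, chromosome 2, 121194835 to 121296354), for 53BP1, stood at 15.9 with the empty vector and at 15.6 with Ascl2, a log2 ratio of -0.02. Of all kept genes 93.3% differed by at least as much, and its ratio was 0.06 with the Ascl2 library rescaled to equal sums. The span of Trp53bp1 overlaps that of Tubgcp4, at 25.3 and 26.5, and that of Map1a, for which no value was found. Sharing of reads with Map1a cannot be judged. Rif1 (ENSMUSG00000036202, chromosome 2, 52072815 to 52126769), for the partner that binds phosphorylated 53BP1, was 16.2 and 21.7, a log2 ratio of 0.40. For Rif1, 21.0% of all kept genes differed by at least as much.

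Mad2l2, for the small HORMA-domain protein REV7 that serves both in shieldin and in the translesion polymerase zeta, had the largest difference of the 9. It stood at 20.95 with the empty vector and at 14.8 with Ascl2, a log2 ratio of -0.47 (ENSMUSG00000029003, chromosome 4, 148130158 to 148145704). Even so, 14.9% of all kept genes differed by at least as much, and the ratio lay within the central 90% of 6941 genes with a mean value from 5 to under 50, which ran from -0.52 to 0.47. The quotient of Rif1 to Mad2l2 stood at 0.772 with the empty vector and at 1.46 with Ascl2, a 1.89-fold difference. The quotient of Rif1 to Trp53bp1 was 1.02 and 1.39. The quotient of Rif1 to Mad2l2 joins the only lower gene past 1.2-fold to a higher one, so its size follows from that choice. The RefSeq span of Mad2l2 overlaps that of Draxin, for which no value was found, so sharing of reads cannot be judged.

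Atm, for the kinase that responds to double-strand breaks and phosphorylates 53BP1 and the histone H2AX, had the highest ratio. It stood at 9.03 with the empty vector and at 12.4 with Ascl2, a log2 ratio of 0.42 (ENSMUSG00000034218, chromosome 9, 53437122 to 53536828). Of all kept genes 18.7% differed by at least as much, and 9.07% had a higher ratio. The quotient of Atm to Prkdc, genes for related kinases, was 1.49 and 1.57 and so changed little. The quotient of Atm to its substrate's gene Trp53bp1 was 0.568 and 0.797.

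**Figure D2:**
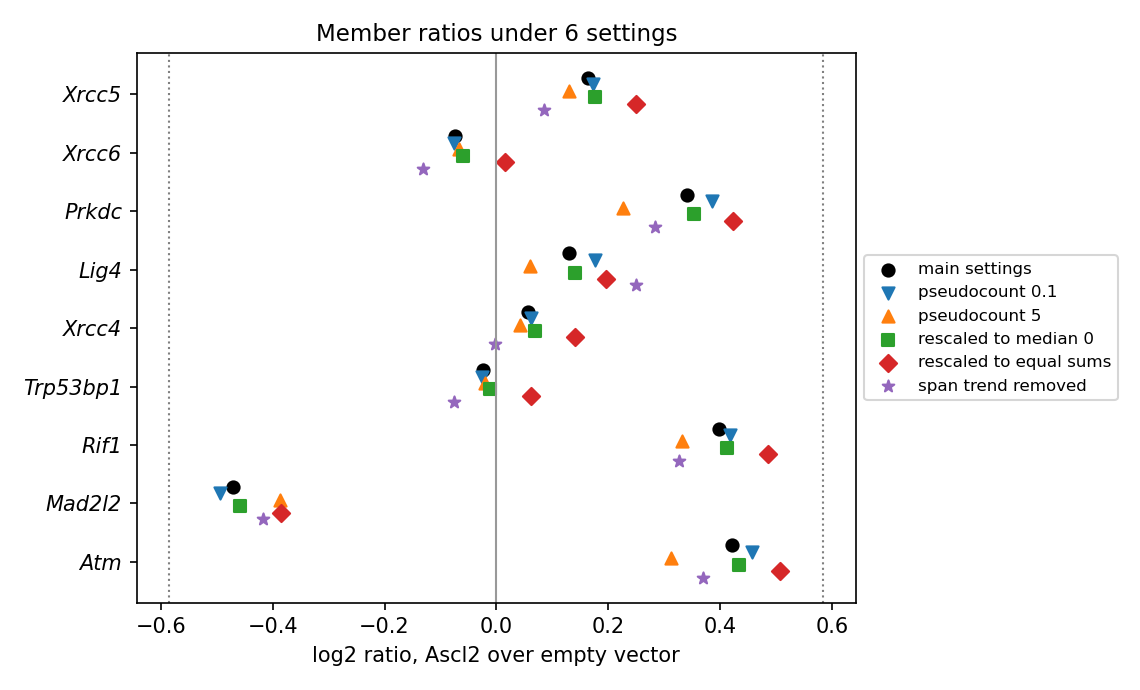
Log2 ratio of Ascl2 over empty vector (horizontal axis) for each of the 9 genes under 6 settings, 1 symbol per setting. Dotted lines mark 1.5-fold. Mad2l2 stays below 0 (-0.50 to -0.38) and Atm, Rif1, Prkdc, Xrcc5 and Lig4 stay above it, while Xrcc6, Xrcc4 and Trp53bp1 cross it.

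Several of the genes lie back to back or end to end with another gene, and the neighbours had ratios of their own. Within 1000 bases of the RefSeq span a second gene was found for 5 of the 9. The share of all genes with such a neighbour was not computed, nor how often such pairs lie on the same side of 0. Neither is therefore read as a trait of the 9 genes. Atm and Npat, a histone gene regulator, are 60 bases apart, and Npat stood at 10.4 with the empty vector and at 12.0 with Ascl2, a log2 ratio of 0.19 beside 0.42 for Atm. Lig4 and Abhd13 are 36 bases apart, with log2 ratios of 0.13 and 0.17, and Xrcc4 and Tmem167 are 58 bases apart, with 0.06 and 0.13. In each of these pairs both genes lay above 0. Prkdc and Mcm4, a subunit of the replicative helicase, are 43 bases apart and lay on opposite sides, with Mcm4 at 83.5 and 74.7, a log2 ratio of -0.16. Mad2l2 and Fbxo6 are 11 bases apart and also lay on opposite sides, Fbxo6 being 15.0 and 16.2. Xrcc4 crosses 0 with the span trend removed, so the side of its pair is not read as a direction.

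Genes with a longer genomic span tended to have a higher log2 ratio in the whole table, with a Spearman rho of 0.20 across 11763 kept genes that have a span, and genes are not independent replicates. Across the 9 genes, whose spans run from 7.66 kb (Lig4) to 241 kb (Xrcc4), the rho was 0.28, given as a description over genes that share the same 2 libraries. Mad2l2, with a span of 15.5 kb, was the second shortest. With the running median over span removed, Mad2l2 was -0.42, Atm 0.37, Rif1 0.33 and Prkdc 0.28 on the log2 scale. The order of these 4 by ratio was the same as before the removal.

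**Figure D3:**
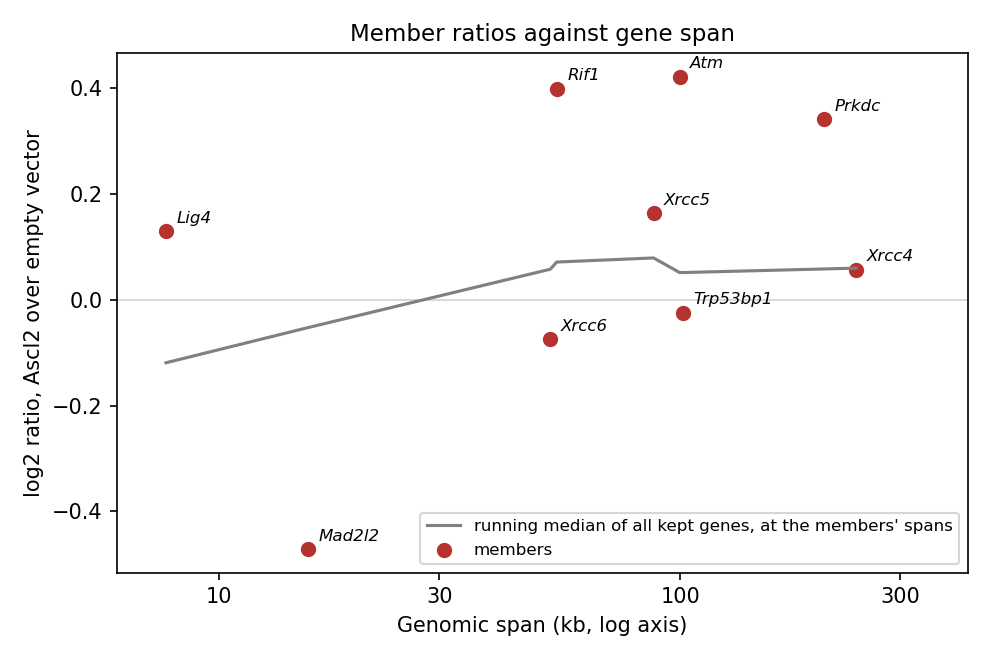
Log2 ratio of Ascl2 over empty vector (vertical axis) against genomic span (horizontal log axis, kb) for the 9 genes, with the running median of all kept genes at the same spans as a grey line. Atm, Rif1 and Prkdc lie above the line by 0.28 to 0.37 and Mad2l2 lies below it by -0.42.

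The other genes of the pathway, taken from 5 lists written from general knowledge with 51 measured genes, also stayed mostly within 1.5-fold. None passed 2-fold, none was at least 1.5-fold higher and 3 were at least 1.5-fold lower, beside the 4.31% of all genes named above. Of 9 genes for end processing and accessory end joining, none passed 1.5-fold and the median log2 ratio was -0.10. Dclre1c, for the Artemis nuclease that opens hairpins and trims ends, stood at 10.9 with the empty vector and at 14.5 with Ascl2 (log2 ratio 0.39). Paxx, an XRCC4-like factor that binds Ku, was 16.9 and 22.0 (0.36).

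Of 12 genes for break sensing and signalling upstream of 53BP1, 1 was at least 1.5-fold lower, and the median was -0.04. This was H2afx, for the histone variant that ATM phosphorylates around a break, with values of 165 for the empty vector and 106 for Ascl2 (log2 ratio -0.63). It was within 1.5-fold with the rescaling to equal sums or the span trend removed. Rnf8, for the ubiquitin ligase that acts after H2AX is marked, was 6.80 and 9.06 (0.37). Atm and the gene of its chromatin substrate therefore lay on opposite sides in these libraries.

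Of 14 genes for effectors and regulators of 53BP1, 1 was at least 1.5-fold lower, and the median was -0.01. This was Pagr1a, for a partner of PTIP, at 7.82 and 4.05 (log2 ratio -0.80), and within 1.5-fold with a pseudocount of 5. Paxip1, for PTIP itself, which binds phosphorylated 53BP1, was 25.8 and 19.7 (-0.37). Of the shieldin genes, partners of Mad2l2, Shld1 was 5.16 and 3.97 (log2 ratio -0.31) and Shld2 was 3.69 and 4.32 (0.18). These values are low, and both ratios lay within the central 90% of genes with a mean value under 5 (-0.64 to 0.71). No direction is read from them.

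Of 4 translesion partners of Mad2l2, 1 was at least 1.5-fold lower, and the median was -0.0011. Pold2, for a subunit that polymerases delta and zeta share, stood at 51.7 with the empty vector and at 33.4 with Ascl2 (log2 ratio -0.62), and within 1.5-fold under each of these settings. Rev3l, for the catalytic subunit of polymerase zeta, was 10.9 and 12.9 (0.23).

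The list for resection and alternative end joining had a median log2 ratio of 0.13 (0.07 to 0.22 over the alternatives). Of its 12 genes 10 had a ratio above 0, beside 48.4% of all kept genes, and none passed 1.5-fold. Lig3, for a ligase of alternative joining, was 9.53 and 13.3 (log2 ratio 0.44), and Bard1, for the partner of BRCA1, was 5.34 and 6.42 (0.23). Genes of replication and division had a median of -0.12, with 4 of 14 above 0 and none past 1.5-fold. The largest there were Mcm5, a helicase subunit, at 132 and 100.4 (-0.39), and Mki67, a marker of dividing cells, at 99.2 and 126 (0.35). The part of cell division in the values of the end joining genes was not tested.

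**Figure D4:**
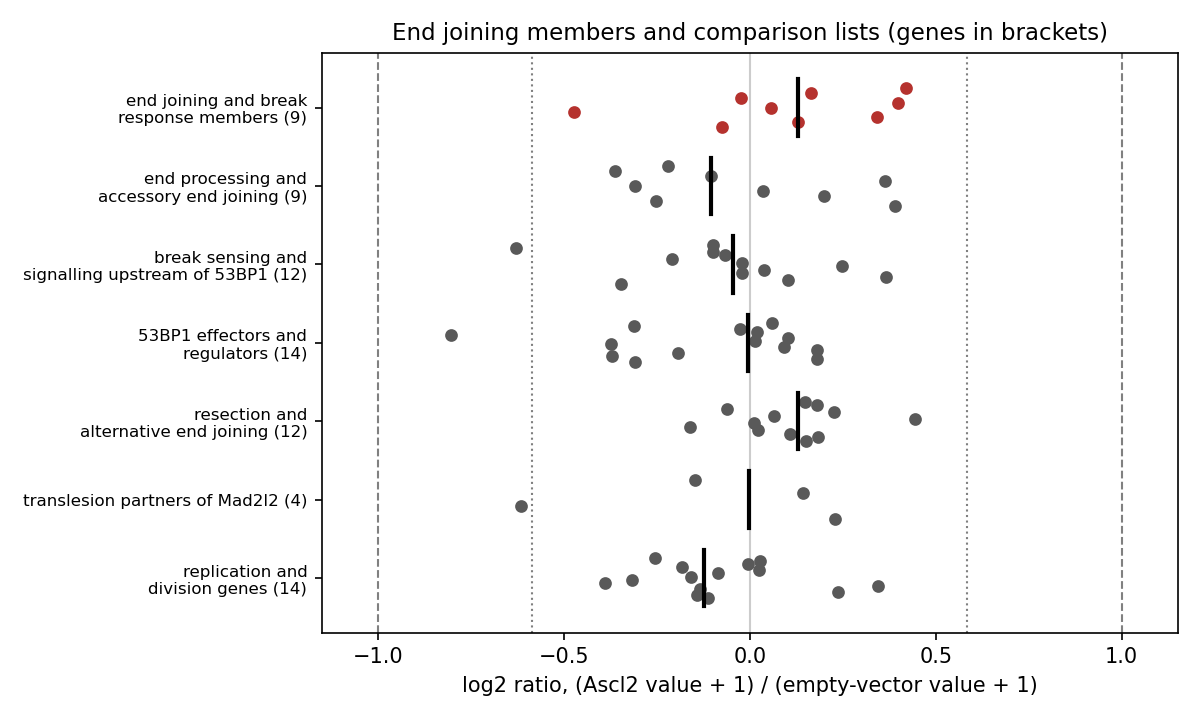
Log2 ratio (horizontal axis, Ascl2 over empty vector with 1 added to each) of each gene, 1 point per gene, in the 9 end joining and break response members (red), 5 lists of other pathway genes and a list of replication and division genes (grey). Black bars are medians, dotted lines mark 1.5-fold and dashed lines 2-fold, and only H2afx, Pagr1a and Pold2 lie past a dotted line.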

How the data were processed

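RNA of 2 libraries was analysed, grouped by sample title. The 2 chromatin samples were left out. The authors deposited 1 value per gene, a scaled signal that is never whole counts. How the RNA reads were mapped and quantified, with which annotation and strand rule, is not given in the sources used here. Per the submitters' processing notes the build was mm10, and MACS2, Picard, Bowtie2 and Trim Galore are listed without roles.

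Log2 ratios used a pseudocount of 1, over the 12283 genes that reached 1 in either library. No count model or test was used, with 1 library per group. List genes were matched by symbol, older symbol or identifier. Spans, coordinates and promoter windows are RefSeq's on GRCm38.p6. The span trend was a running median over 500 genes. Members and lists were chosen with earlier results of these data known. Named by rule were all members, any list gene past 2-fold or else the 2 largest ratios per list. The rule also took the 3 genes nearest in level to the member with the largest ratio, which are not printed because levels of different genes are not compared. Desi1, Tubgcp4, Map1a, Gm52255, Draxin, Shld1, Shld2 and the neighbouring genes were named outside it, after the values were seen. One marker gene is not reported here. Python 3.11.15, numpy 2.4.6 and pandas 2.3.3 were used. The ratio and span-trend steps were tested on simulated data, with planted changes larger than any difference of the members. That check does not bear on differences as small as theirs.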

Additional observations from a re-analysis of the deposited data

How the results depend on the processing

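Alternatives were pseudocounts of 0.1 and 5, 2 rescalings of the Ascl2 library (by factors of 1.01 and 1.07), removal of the span trend, no filter and a filter of 5. None of the 9 genes passed 1.5-fold under any of the 7. The limit of 1.2-fold, added after the values were seen, was passed by 4 with the settings used above. With a pseudocount of 5 the log2 ratio of Prkdc was 0.23, which is under 1.2-fold. Of 63 alternative log2 ratios of single genes 3 moved by at least 0.1. The side of 0 was kept under all by 6 of 9 genes, with Xrcc6, Xrcc4 and Trp53bp1 as exceptions. The filter settings could not change the ratio of a single gene, and a pseudocount could not change its side of 0. Only the rescalings and the removal of the span trend could move a gene across 0. The counts of genes at least 1.5-fold lower went from 1 to 0 for effectors and regulators of 53BP1 with a pseudocount of 5, for break sensing with the rescaling to equal sums and with the span trend removed, and for translesion partners under all 3 of these settings. The cause was not tested. A planned correction for protein length was not run, because no protein lengths were used here. No paired analysis was possible because each group has 1 library. Depth is unknown, and low values such as those of Lig4 are the least precise.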
